A study of Mus musculus with 14 samples.

Results

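Ketone body use in the mouse heart was followed through 4 genes, Slc16a1, Bdh1, Oxct1 and Acat1, of 18194 gene symbols on the array. Every probe set annotated to exactly 1 of these symbols was taken, which gave 11 of 45101 probe sets, and all 11 passed the filter on low values (at least 3 arrays with a log2 value above 5.75, the median over the table). RNA came from left ventricles of male C57BL/6 mice on 14 Affymetrix Mouse430_2 arrays. After 3 days of transverse aortic constriction (TAC), pressure overload made by tying a band around the aorta, there were 4 arrays from Hsp22 knockout (KO) and 4 from Hsp22 wild-type (WT) mice; in the basal condition, with no pressure overload, there were 3 KO and 3 WT arrays. Hsp22 is the small heat shock protein encoded by Hspb8, and the study asked how its loss alters gene expression in basal and in overloaded hearts. Which part of Hspb8 was removed, in which cells, the age of the mice and whether RNA was pooled are not given by the sources used here, and no group is labelled as sham-operated. Nothing in the labels states that each array came from a separate mouse, so p-values measure the spread between these samples, which may be technical.

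Ketone bodies are made in the liver from fatty acids and burnt in other organs, the heart among them. 3-Hydroxybutyrate and acetoacetate cross membranes through monocarboxylate transporters such as Slc16a1 (MCT1), which also carries lactate and pyruvate. In mitochondria Bdh1 oxidises 3-hydroxybutyrate to acetoacetate, Oxct1 (SCOT) transfers coenzyme A from succinyl-CoA to acetoacetate, and Acat1, a thiolase, splits acetoacetyl-CoA into acetyl-CoA for the citrate cycle. Oxct1 catalyses the step that the liver lacks. Acat1 also takes part in the last steps of isoleucine breakdown. Raised use of ketone bodies, with higher BDH1, is known from failing hearts.

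On the GRCm38.p6 assembly, RefSeq places Slc16a1 on chromosome 3 (104638664 to 104658462), Bdh1 on chromosome 16 (31422297 to 31458901), Oxct1 on chromosome 15 (4026428 to 4155344) and Acat1 on chromosome 9 (53580522 to 53610350). The 250 bases before the RefSeq start are shown for the gene that was higher after TAC in both genotypes and for the enzymes of the first steps; all lie on the plus strand, at chr3:104638414-104638663 for Slc16a1, chr16:31422047-31422296 for the first Bdh1 start and chr15:4026178-4026427 for Oxct1. Capitals mark an E-box, CACGTG.
Slc16a1: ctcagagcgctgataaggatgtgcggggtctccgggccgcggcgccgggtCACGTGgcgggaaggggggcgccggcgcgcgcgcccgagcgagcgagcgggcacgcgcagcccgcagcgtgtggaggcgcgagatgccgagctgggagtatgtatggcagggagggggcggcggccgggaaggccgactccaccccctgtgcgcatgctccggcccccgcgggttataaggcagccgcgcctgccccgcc
Bdh1: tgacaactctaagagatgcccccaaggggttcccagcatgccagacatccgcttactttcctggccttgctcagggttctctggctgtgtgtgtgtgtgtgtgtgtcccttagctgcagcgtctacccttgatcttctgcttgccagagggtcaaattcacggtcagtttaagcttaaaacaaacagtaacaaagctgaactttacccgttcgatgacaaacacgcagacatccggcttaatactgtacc
Oxct1: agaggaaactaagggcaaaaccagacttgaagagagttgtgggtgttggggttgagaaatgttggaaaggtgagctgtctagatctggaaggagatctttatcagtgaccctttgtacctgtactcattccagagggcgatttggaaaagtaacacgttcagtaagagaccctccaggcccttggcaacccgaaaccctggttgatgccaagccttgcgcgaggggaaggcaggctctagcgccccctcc
The Slc16a1 window held 1 E-box, at positions -200 to -195 before the start, a motif present in 6.02% of 32851 mouse promoter windows of this length. Its GC content was 76.4%, against a median of 52.4% over all windows, while the first Bdh1 window had 49.6% and the Oxct1 window 52.0%. On either strand the 3 windows shown and the window of the other Bdh1 start held no AGGTCA, the nuclear receptor half-site, which 14% of all windows hold. Nor did they hold TCAAGGTCA, which contains that half-site and is in 0.387% of windows, or a direct repeat 1, in 0.0335%. These are matches of letters and not measured binding sites.

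The targeted gene followed its labels. Hspb8 lay at 5.92 or below in all 7 KO arrays and at 10.26 or above in all 7 WT arrays on 2 of its probe sets, 1417013_at and 1417014_at; on the third, 1456434_x_at, KO arrays ran from 8.20 to 8.84 and WT arrays from 8.79 to 10.01. Names of array files in the labels put the TAC arrays and the basal arrays in separate runs, so surgery and run cannot be told apart in any comparison of TAC with basal hearts; comparisons of KO with WT after TAC lie within a run, and basal KO 3 carries another day than the other basal arrays. TAC WT 3 was the array least like its own group. The mean of 7 cardiomyocyte markers ran from 14.05 to 14.20 in TAC KO, from 13.87 (TAC WT 3) to 14.28 in TAC WT, from 14.10 to 14.14 in basal KO and from 14.12 to 14.18 in basal WT arrays. The mean of 6 macrophage markers ran from 10.17 to 10.54 in TAC KO, from 9.32 to 11.10 (TAC WT 3) in TAC WT, from 9.06 to 9.23 in basal KO and from 8.79 to 8.92 in basal WT arrays. In whole tissue, fewer cells of a type and less RNA per cell cannot be told apart.

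After 3 days of TAC, Slc16a1 rose in both genotypes, about 1.4-fold in KO and 1.7-fold in WT hearts on its brighter probe set. Oxct1 and Acat1 fell in KO hearts on 3 of their 7 probe sets, by 1.5 to 1.9 times. In WT hearts 1 Bdh1 and 1 Oxct1 probe set rose, and none of the enzymes' probe sets was lower at an adjusted p under 0.05. Oxct1 was nevertheless lower there on its brightest probe set (-0.28) and, with no overlap, on 1428140_at (-0.65, adjusted p = 0.0519, limma). Acat1 differed by -0.35 to -0.68, while Bdh1 and the other Oxct1 probe sets were higher. For 0 of the 11 probe sets was the change after TAC shown to differ between genotypes. Of the 11 probe sets, 2 were higher and 3 lower at an adjusted p under 0.05 (limma, Benjamini-Hochberg over 24525 probe sets) in TAC KO against basal KO hearts, where 23% of all probe sets were higher and 20.2% lower. In TAC WT against basal WT hearts 4 were higher, where 27.8% of all were, and 0 lower, where 22.4% of all were; 7 of the 11 had an unadjusted p under 0.05 there, beside 57.4% of all. Groups did not overlap on 7 of the 11 in KO hearts, against 52.4% of all probe sets, and on 4 of the 11 in WT hearts, against 49.6%. The median difference of the 11 was -0.25 in KO and +0.44 in WT hearts on the log2 scale, beside 0 and 0.04 over all probe sets. Most of these shares are near those of the whole array, though 0 of the 11 were lower in WT hearts. The medians also differ from those of all probe sets. Since the 4 genes moved in unlike directions, these pooled values do not show whether the set as a whole stands out.

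**Figure D1:**
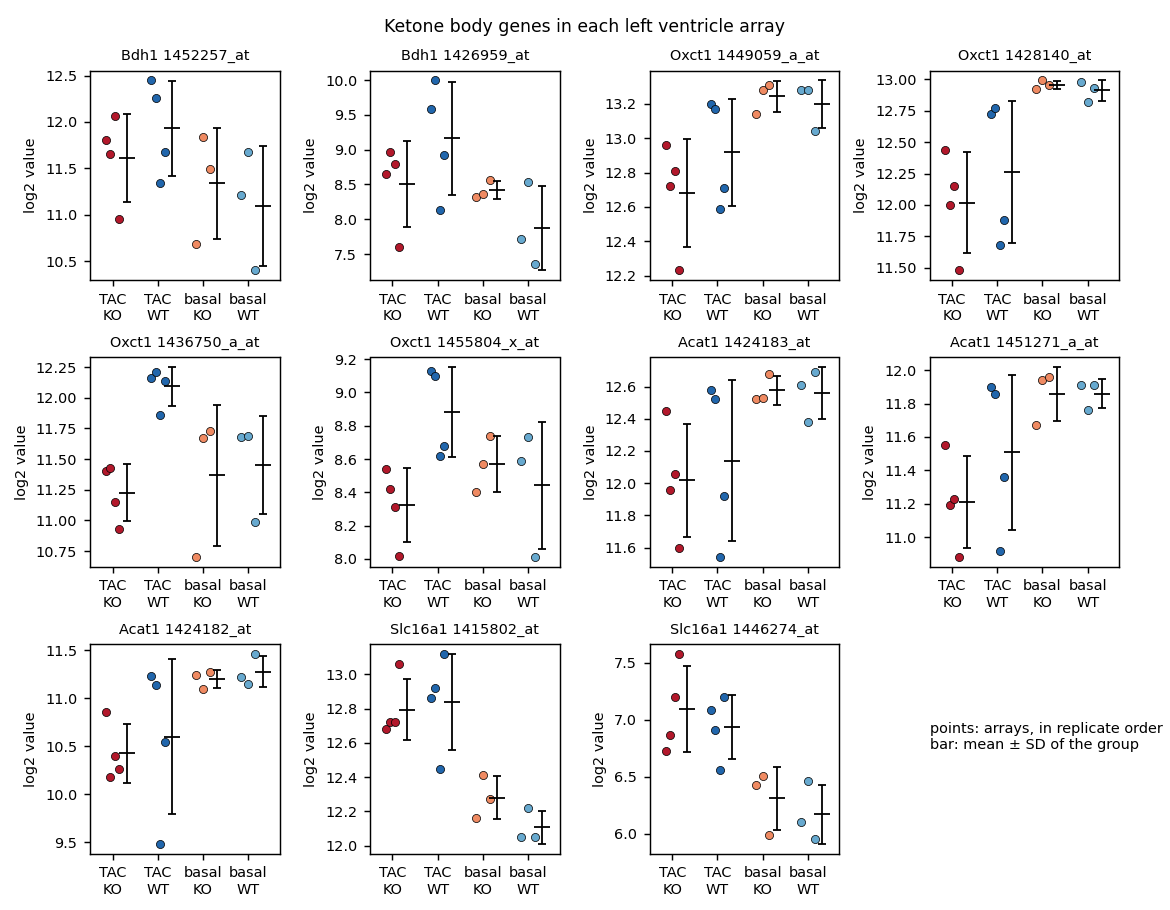
Log2 expression value (vertical axes, each on its own range) of the 11 probe sets in the TAC KO, TAC WT, basal KO and basal WT arrays (n = 4, 4, 3 and 3). Points are arrays in replicate order and bars are the group mean ± SD; both Slc16a1 probe sets lie higher in all TAC arrays than in any basal array, and Oxct1 1436750_a_at lies lower in all TAC KO than in all TAC WT arrays.

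Slc16a1, the transporter, was higher in every TAC array than in any basal array on both probe sets. On 1415802_at the log2 values were 12.68, 12.72, 12.72 and 13.06 in TAC KO and 12.86, 12.92, 12.45 and 13.12 in TAC WT hearts, against 12.16, 12.41 and 12.27 in basal KO and 12.05, 12.22 and 12.05 in basal WT hearts. The difference between TAC and basal was +0.52 in KO hearts (1.43-fold, SE 0.15, adjusted p = 0.0142) and +0.73 in WT hearts (1.66-fold, SE 0.15, adjusted p = 0.00166; limma). The dimmer probe set, 1446274_at, gave 6.73, 6.87, 7.20 and 7.58 in TAC KO and 7.09, 6.91, 6.56 and 7.20 in TAC WT hearts, against 6.43, 6.51 and 5.99 in basal KO and 6.10, 6.46 and 5.95 in basal WT hearts. It rose by +0.79 in KO (adjusted p = 0.0111) and +0.77 in WT hearts (adjusted p = 0.0102; SE 0.22 for both, limma). TAC KO 4 and TAC WT 4 were the highest of their groups on both probe sets, and TAC WT 3 the lowest of the TAC WT arrays on both. Without TAC WT 3 the rise in WT hearts was +0.86 on 1415802_at and +0.90 on 1446274_at. In KO hearts the call was lost without basal KO 1 on 1415802_at (+0.46, adjusted p = 0.0579) and without basal KO 3 on 1446274_at (+0.63, adjusted p = 0.0583).

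Bdh1, the dehydrogenase that opens the pathway for 3-hydroxybutyrate, was more variable between arrays than the other genes. On 1452257_at the log2 values were 11.80, 11.65, 12.06 and 10.95 in TAC KO and 12.45, 12.26, 11.34 and 11.68 in TAC WT hearts, against 10.68, 11.84 and 11.49 in basal KO and 11.21, 11.68 and 10.40 in basal WT hearts. The groups overlapped in both genotypes. The difference was +0.28 in KO (SE 0.37, adjusted p = 0.553) and +0.84 in WT hearts (SE 0.37, adjusted p = 0.0711; limma), so neither passed. On 1426959_at the values were 8.65, 8.97, 8.80 and 7.60 in TAC KO and 9.58, 10.0, 8.14 and 8.93 in TAC WT hearts, against 8.32, 8.37 and 8.57 in basal KO and 7.71, 8.54 and 7.36 in basal WT hearts. Here WT hearts rose by +1.29 (2.45-fold, SE 0.41, adjusted p = 0.0197), though TAC WT 3 lay below basal WT 2, and KO hearts differed by +0.09 (SE 0.41, adjusted p = 0.88). Without TAC WT 3 both probe sets passed in WT hearts, at +1.03 (adjusted p = 0.0368) and +1.63 (adjusted p = 0.00367). Leaving out basal WT 1 gave +1.21 (adjusted p = 0.0605) on 1426959_at, leaving out basal WT 3 gave +1.04 (0.09) and leaving out TAC WT 2 gave +1.01 (0.0525), so the call was lost each time; it was also lost when the TAC WT and basal WT arrays were fitted alone (adjusted p = 0.0523).

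Oxct1, the coenzyme A transferase, was read by 4 probe sets that formed pairs with opposite signs in WT hearts. The first pair was lower after TAC. On 1449059_a_at, its brightest, the log2 values were 12.96, 12.72, 12.81 and 12.23 in TAC KO and 13.20, 13.17, 12.59 and 12.71 in TAC WT hearts, against 13.14, 13.28 and 13.31 in basal KO and 13.28, 13.28 and 13.04 in basal WT hearts. All TAC KO arrays lay below all basal KO arrays, while TAC WT 1 and TAC WT 2 lay among the basal WT arrays. The probe set fell by 0.56 in KO hearts (1.48-fold lower, SE 0.18, adjusted p = 0.0243), and in WT hearts the difference was -0.28 (SE 0.18, adjusted p = 0.208; limma). On 1428140_at the values were 12.44, 12.00, 12.15 and 11.48 in TAC KO and 12.72, 12.77, 11.68 and 11.88 in TAC WT hearts, against 12.92, 12.99 and 12.95 in basal KO and 12.98, 12.82 and 12.93 in basal WT hearts. Groups did not overlap in either genotype, and the spread between arrays was wider after TAC. The difference was -0.94 in KO (1.91-fold lower, SE 0.26, adjusted p = 0.0117) and -0.65 in WT hearts (SE 0.26, adjusted p = 0.0519). For the brightest probe set the call in KO hearts was lost without basal KO 2 (-0.55, adjusted p = 0.0678), basal KO 3 (-0.53, adjusted p = 0.0732) or TAC KO 4 (-0.41, adjusted p = 0.0664), and with its 4 probe sets averaged (-0.47, adjusted p = 0.0587). The mean of the 7 cardiomyocyte markers was 14.13 both in TAC KO and in basal KO hearts, and 0 of the 7 passed there with all arrays. The troponin gene Tnni3 was lower in TAC KO hearts when TAC WT 3 was left out (-0.35, adjusted p = 0.0387; limma). Their part in the Oxct1 values was not tested.

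The second Oxct1 pair, 1436750_a_at and 1455804_x_at, shares 1 annotated sequence; the x in a probe set's name marks probes that can also bind other transcripts. On 1436750_a_at the log2 values were 11.40, 11.43, 11.15 and 10.93 in TAC KO and 12.16, 12.21, 11.86 and 12.14 in TAC WT hearts, against 10.70, 11.67 and 11.73 in basal KO and 11.68, 11.69 and 10.99 in basal WT hearts. On 1455804_x_at they were 8.54, 8.42, 8.31 and 8.02 in TAC KO and 9.13, 9.10, 8.62 and 8.68 in TAC WT hearts, against 8.40, 8.57 and 8.74 in basal KO and 8.59, 8.73 and 8.01 in basal WT hearts. In WT hearts 1436750_a_at rose by +0.64 (1.56-fold, SE 0.24, adjusted p = 0.0406) and 1455804_x_at differed by +0.44 (SE 0.19, adjusted p = 0.069). In KO hearts the differences were -0.14 (adjusted p = 0.658) and -0.25 (adjusted p = 0.303; limma). The rise of 1436750_a_at was lost without basal WT 3 (+0.41, adjusted p = 0.201), TAC WT 1 (+0.62, adjusted p = 0.062), TAC WT 2 (+0.60, adjusted p = 0.0772), TAC WT 4 (+0.62, adjusted p = 0.0755) or TAC KO 3 (adjusted p = 0.0515), and with quantile normalization (+0.48, adjusted p = 0.123). The direction of Oxct1 in WT hearts therefore depended on the probe set, and the mean of its 4 probe sets gave +0.04 (adjusted p = 0.878).

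Acat1, the thiolase at the end of the pathway, was lower after TAC on all 3 probe sets, which share 1 annotated sequence. On 1424183_at the log2 values were 12.45, 11.96, 12.06 and 11.60 in TAC KO and 12.58, 12.52, 11.54 and 11.92 in TAC WT hearts, against 12.52, 12.53 and 12.68 in basal KO and 12.61, 12.38 and 12.69 in basal WT hearts. TAC WT 1 and TAC WT 2 were again at the basal level, while all TAC KO arrays lay below all basal KO arrays. The difference was -0.56 in KO (SE 0.24, adjusted p = 0.0698) and -0.42 in WT hearts (SE 0.24, adjusted p = 0.151; limma), and neither passed. On 1451271_a_at the values were 11.55, 11.19, 11.23 and 10.88 in TAC KO and 11.90, 11.86, 10.92 and 11.36 in TAC WT hearts, against 11.67, 11.94 and 11.96 in basal KO and 11.91, 11.76 and 11.91 in basal WT hearts. This probe set fell by 0.64 in KO hearts (1.56-fold lower, SE 0.21, adjusted p = 0.0268), with -0.35 in WT hearts (adjusted p = 0.183). The third, 1424182_at, held the widest spread of the 3 Acat1 probe sets in TAC WT hearts, with 9.48 in TAC WT 3 and 11.23 in TAC WT 1. Its differences were -0.78 in KO (adjusted p = 0.065) and -0.68 in WT hearts (adjusted p = 0.0919, limma). Without TAC WT 3, which also widens the spread that all groups share in the fit, all 3 passed in KO hearts (adjusted p = 0.029, 0.00643 and 0.00428), and the WT differences were -0.22, -0.15 and -0.31. The call on 1451271_a_at was lost without basal KO 2 (-0.60, adjusted p = 0.0807), basal KO 3 (-0.59, adjusted p = 0.0839), TAC KO 2 (-0.64, adjusted p = 0.0508) or TAC KO 4 (-0.53, adjusted p = 0.0773).

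**Figure D2:**
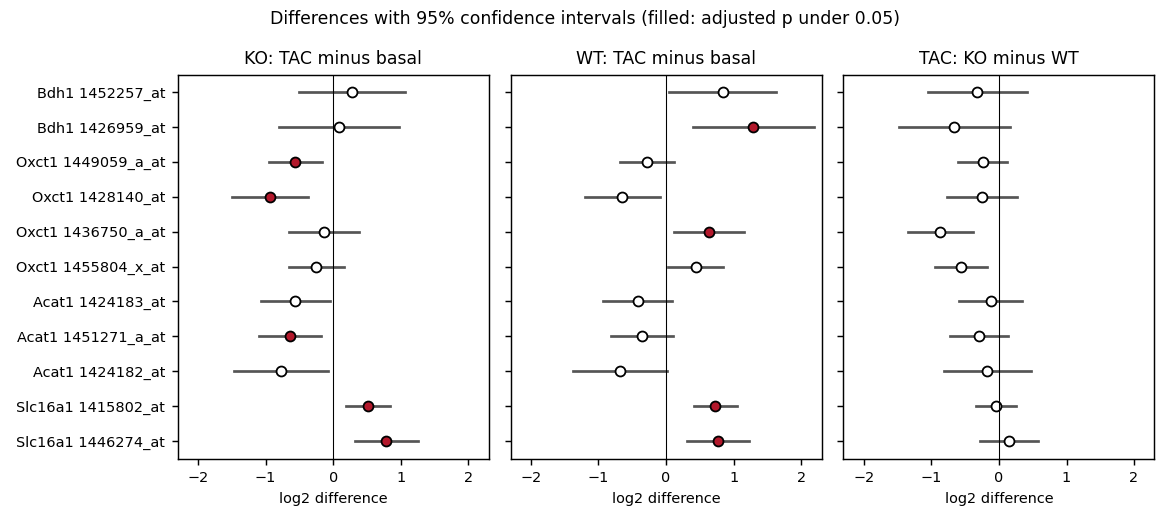
Log2 difference (horizontal axes) of each probe set for TAC minus basal in KO hearts, TAC minus basal in WT hearts and KO minus WT after TAC, with 95% confidence intervals from limma; filled points have an adjusted p under 0.05. Both Slc16a1 probe sets are filled on the right of 0 in both genotypes, 2 Oxct1 and 1 Acat1 probe sets are filled on the left of 0 in KO hearts, and none is filled for KO minus WT.

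Loss of Hsp22 changed none of the 11 probe sets at the threshold, in basal or in TAC hearts. In basal KO against basal WT hearts 0 of 11 passed, as did 0.00815% of all probe sets, and groups overlapped on all 11, where 13% of all probe sets had no overlap; 0 of the 11 had an unadjusted p under 0.05, beside 5.7% of all. The differences of the brightest probe sets were +0.17 for Slc16a1 (95% interval -0.17 to 0.52), +0.24 for Bdh1 (-0.60 to 1.08), +0.04 for Oxct1 (-0.38 to 0.46) and +0.02 for Acat1 (-0.53 to 0.56). Basal Bdh1 could thus differ by more than 1 log2 unit within its interval.

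After TAC, 0 of 11 passed between KO and WT hearts, where 0.0285% of all probe sets did, and groups did not overlap on 2 of 11, against 4.19% of all. Both were Oxct1 probe sets of the second pair. On 1436750_a_at the highest TAC KO array, 11.43, lay below the lowest TAC WT array, 11.86, and the difference was -0.87 (1.82-fold lower, SE 0.22, unadjusted p = 0.00175, adjusted p = 0.276; limma). On 1455804_x_at it was -0.56 (SE 0.18, unadjusted p = 0.00691, adjusted p = 0.401). These were the only 2 of the 11 with an unadjusted p under 0.05 in that comparison, where 8.18% of all probe sets had one. For the brightest probe sets the differences were -0.04 for Slc16a1 (95% interval -0.34 to 0.25), -0.32 for Bdh1 (-1.05 to 0.41), -0.24 for Oxct1 (-0.60 to 0.13) and -0.12 for Acat1 (-0.59 to 0.35). The median over the 11 was -0.25, beside -0.02 over all probe sets. With array weights, which give TAC WT 3 a weight of 0.222 and TAC KO 3 one of 4.20, 4 of the 11 were lower in TAC KO hearts at the threshold, and 2956 probe sets of the whole table passed in either direction, against 7 without weights. Those were Oxct1 1436750_a_at (-0.95, adjusted p = 0.0126) and 1455804_x_at (-0.68, adjusted p = 0.0129), Acat1 1451271_a_at (-0.50, adjusted p = 0.0296) and Bdh1 1426959_at (-0.96, adjusted p = 0.0349). Without TAC WT 3, 0 of 11 passed, beside 168 of 24525 in the whole table.

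The difference between the KO effects after TAC and in basal hearts, which equals the difference between the TAC effects in KO and WT hearts, passed for 0 of 11 probe sets and for 0% of all; 2 of the 11 had an unadjusted p under 0.05, beside 7.9% of all (limma). It was -1.21 for Bdh1 1426959_at (SE 0.59, adjusted p = 0.641), -0.78 for Oxct1 1436750_a_at (SE 0.34, adjusted p = 0.607) and -0.69 for Oxct1 1455804_x_at (SE 0.27, adjusted p = 0.565; limma). A change of Bdh1 or Oxct1 that passed in 1 genotype was therefore not shown to differ between genotypes.

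Within the 8 TAC arrays the brightest probe sets of the 3 mitochondrial enzymes varied together. On the brightest probe sets Bdh1 and Oxct1 had a Pearson r of 0.955 (exact permutation p = 0.000372, adjusted p = 0.00253) and a Spearman rho of 0.952 (exact p = 0.00114). Oxct1 and Acat1 had r = 0.927 (exact permutation p = 0.000422, adjusted p = 0.00253) and rho = 0.976 (exact p = 0.000397), and Bdh1 and Acat1 r = 0.881 (exact permutation p = 0.00397, adjusted p = 0.0159) and rho = 0.929 (exact p = 0.00223). Tests were two-sided, and the adjustment covers 12 pairs, 6 over TAC and 6 over basal arrays. How common such r were among other pairs of genes was not computed. Over all 14 arrays with group means removed, Acat1 had r of 0.985 with Atp5h and 0.971 with Tnni3. High r was therefore not particular to the enzymes of ketone body use. Without TAC WT 1 and TAC KO 4, the arrays farthest from the median of the gene named first, r was 0.864, 0.950 and 0.817 for these pairs. Slc16a1 gave r between -0.10 and 0.10 with each enzyme (exact permutation p of 0.811 to 0.974). Without the 2 farthest arrays its r was 0.455 with Bdh1, 0.339 with Oxct1 and -0.07 with Acat1. These values were not tested, so none of them is shown to differ from 0. The 8 arrays pool both genotypes, and with 4 arrays each no correlation within a genotype was computed. Across the 6 basal arrays Bdh1 and Oxct1 had r = 0.910 (exact permutation p = 0.025, adjusted p = 0.075) and rho = 0.698 (exact p = 0.15), and without basal WT 3 and basal KO 1 r was -0.16, so that relation rests on those arrays. In basal hearts Oxct1 and Acat1 had r = -0.30 (exact permutation p = 0.592) and rho = -0.09 (exact p = 0.883). Other probe sets were less uniform. Over all 14 arrays, with group means removed, Oxct1 1436750_a_at had r of 0.30, 0.47 and 0.17 with Acat1 1424183_at, 1451271_a_at and 1424182_at. For Oxct1 1428140_at these were 0.96, 0.95 and 0.83.

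**Figure D3:**
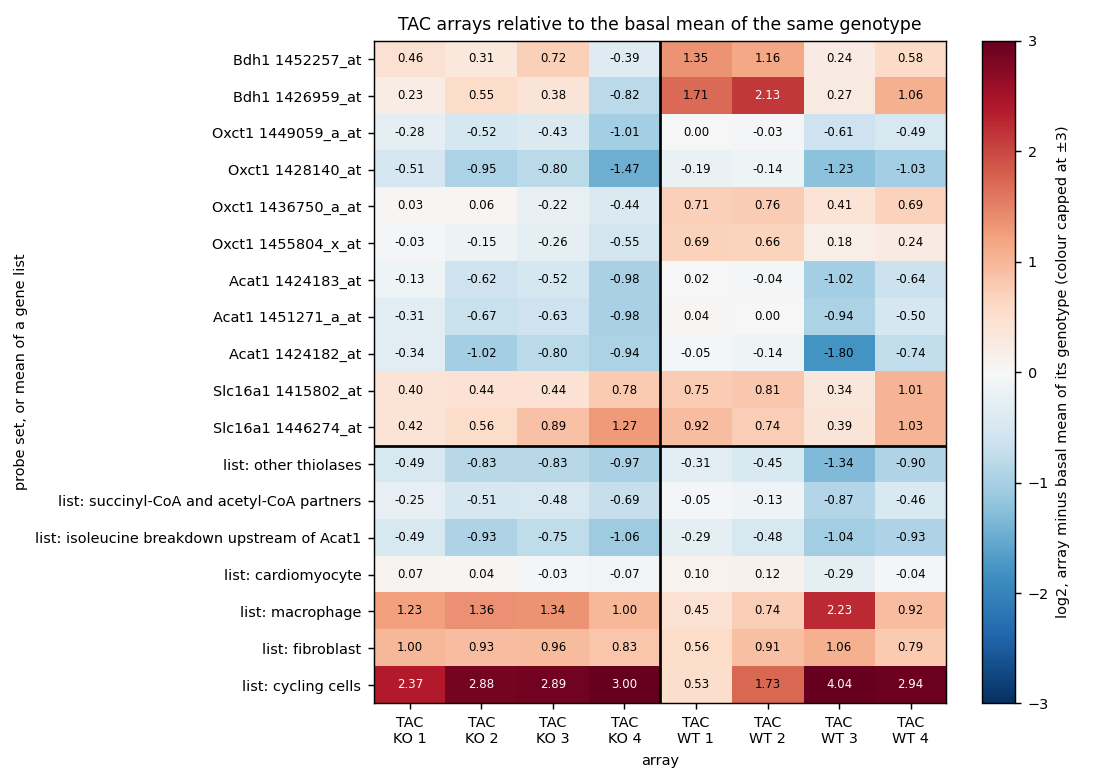
Each TAC array (columns, KO left and WT right) minus the basal mean of its genotype, on the log2 scale, for the 11 probe sets and for the means of gene lists (rows below the line); colour is capped at ±3. Acat1 1424183_at is at 0.02 and -0.04 in TAC WT 1 and 2 and at -1.02 and -0.64 in TAC WT 3 and 4, and TAC WT 3 has the highest macrophage (2.23) and cycling cell (4.04) values.

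Cell type markers also differed between the TAC arrays. Acat1 1424183_at lay 0.02 above, 0.04 below, 1.02 below and 0.64 below the basal WT mean in TAC WT 1 to 4, and 0.13, 0.62, 0.52 and 0.98 below the basal KO mean in TAC KO 1 to 4. The mean of 5 cycling cell genes lay 0.53, 1.73, 4.04 and 2.94 above basal in the same TAC WT arrays and 2.37, 2.88, 2.89 and 3.00 above in the TAC KO arrays. Acat1 was lowest and the cycling cell genes highest in TAC WT 3 and, among KO arrays, in TAC KO 4. The macrophage markers were highest in TAC WT 3, 2.23 above basal, but among KO arrays they were lowest in TAC KO 4. All 5 cycling cell genes rose in both genotypes. Of 6 macrophage markers, Cd68, Mrc1 and Lyz2 rose in both, Cd14 in KO hearts and Adgre1 in WT hearts. Of 6 fibroblast markers 4 rose in each genotype and 1 fell in WT hearts, and of 6 endothelial markers 2 fell in KO and 3 in WT hearts. Of the markers of other cell types that passed the filter, the erythroid gene Alas2 fell in both genotypes, of the hepatocyte genes Apoa1 fell in both and Ttr in WT hearts, the adipocyte gene Adipoq passed in neither, and Acta1, an actin of skeletal muscle that the heart also makes, rose in WT hearts (+1.77, adjusted p = 0.000682; limma). For Apoa1 all TAC arrays, 4.93 to 5.41, lay under the filter value, so a rise could not have been seen. The defining skeletal muscle genes Myh4, Myh1 and Tnnt3 did not pass the filter. The part of these cells in the values of the 4 genes was not tested.

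The genes around ketone body use were read from lists, each gene on its brightest probe set. Of all probe sets 20.2% were lower in KO and 22.4% in WT hearts, so in a list of 5 to 7 measured genes 1 or 2 falls are near those shares. Ketone synthesis and other ketone enzymes gave 1 measured gene of 9, Aacs, which makes acetoacetyl-CoA in the cytosol, and it did not pass in any comparison. Of 11 genes of monocarboxylate transport 6 were measured, Slc16a3 among them. Emb, a partner protein of these transporters, rose in KO hearts (+1.82, SE 0.49, adjusted p = 0.00958) and differed by +1.20 in WT hearts (adjusted p = 0.0534). Its values were 8.07, 8.14, 7.99 and 8.53 in TAC KO and 6.30, 6.66, 9.23 and 7.49 in TAC WT hearts, against 6.25 to 6.46 in basal KO and 5.92 to 6.37 in basal WT hearts. Bsg (basigin), the partner that carries Slc16a1 to the membrane, fell where Slc16a1 rose. Its log2 values were 13.19, 12.92, 13.08 and 12.84 in TAC KO and 13.47, 13.26, 12.65 and 13.02 in TAC WT hearts, against 13.76, 13.81 and 13.71 in basal KO and 13.78, 13.73 and 13.72 in basal WT hearts. It fell by 0.75 in KO (SE 0.16, adjusted p = 0.00264) and by 0.64 in WT hearts (SE 0.16, adjusted p = 0.00504; limma), with no overlap. Slc16a8 and Slc16a11 fell in WT hearts, by 0.41 and 0.43, but for Slc16a8 all TAC WT arrays, 5.46 to 5.68, lay under the filter value of 5.75. Its basal WT arrays, 5.81 to 6.11, lay little above that value. Slc16a3 (MCT4), a lactate exporter, differed by +0.44 in KO (adjusted p = 0.111) and +0.08 in WT hearts (adjusted p = 0.771). The list thus held 1 rise and 1 fall in KO and 3 falls in WT hearts, 2 without TAC WT 3, with medians of -0.09 and -0.17.

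Of 7 measured genes of lactate and pyruvate use, 2 fell in KO and 3 in WT hearts, and none rose. Ldhb, the heart form of lactate dehydrogenase, fell by 0.81 in KO (adjusted p = 0.0203) and by 0.79 in WT hearts (adjusted p = 0.0203; limma), Ldhd fell in both, and Pdk4, a kinase that holds back pyruvate dehydrogenase, fell by 1.48 in WT hearts (adjusted p = 0.0267), with -1.27 in KO hearts (adjusted p = 0.0569). Without TAC WT 3 these counts were 4 and 1. Among 7 partners in succinyl-CoA and acetyl-CoA use, 4 fell in KO and 3 in WT hearts. Suclg2, a subunit of the enzyme that also consumes succinyl-CoA, fell by 0.70 and 0.72 in KO and WT hearts, Ogdh by 0.81 and 0.75, and Dlst by 0.75 and 0.49; Ogdh and Dlst are subunits of the complex that makes succinyl-CoA. Cs, citrate synthase, fell in KO hearts by 0.45 (adjusted p = 0.018). The list medians were -0.45 in KO and -0.32 in WT hearts. The count in KO hearts was 6 and the WT median -0.18 without TAC WT 3.

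Of 5 other measured thiolases and their partners all 5 fell in KO and 4 in WT hearts, by 0.41 to 1.41. Hadha, a subunit of the trifunctional protein of fatty acid oxidation, had values of 12.28, 11.73, 11.66 and 11.55 in TAC KO and 12.65, 12.61, 11.16 and 11.76 in TAC WT hearts, against 13.17 to 13.26 in basal KO and 13.24 to 13.30 in basal WT hearts. Its difference was -1.41 in KO (adjusted p = 0.00249) and -1.23 in WT hearts (adjusted p = 0.0042; SE 0.29 for both, limma). Of 7 genes of isoleucine breakdown upstream of Acat1, 3 fell in both genotypes, 5 in KO hearts without TAC WT 3, and Dbt rose in WT hearts (+0.55, adjusted p = 0.0294). Bcat2, the mitochondrial branched-chain aminotransferase, fell most of this list in KO hearts: 7.89, 7.76, 7.69 and 7.66 in TAC KO and 7.98, 7.87, 9.26 and 7.99 in TAC WT hearts, against 10.72, 10.68 and 9.37 in basal KO and 9.46, 10.83 and 9.56 in basal WT hearts. Its difference was -2.51 in KO (adjusted p = 0.000597) and -1.68 in WT hearts (adjusted p = 0.00438; SE 0.40 for both). Bckdha, a subunit of the branched-chain keto acid dehydrogenase, fell by 1.59 and 1.82 in KO and WT hearts, and Echs1 by 0.72 and 0.77. The medians of these lists were -0.67 and -0.65 in KO and -0.62 and -0.50 in WT hearts. Leaving out TAC WT 3, 3 genes of the list of thiolases and their partners fell in WT hearts, Acaa1a, Acaa2 and Hadha. The isoleucine median there was -0.27.

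Of 5 measured regulators and sensors all 5 fell in KO and 4 in WT hearts. Both counts include Hcar2, for which only a fall could have been seen. Ppargc1a, a coactivator of mitochondrial genes, had values of 9.95, 9.21, 9.72 and 8.89 in TAC KO and 10.43, 10.43, 8.53 and 9.41 in TAC WT hearts, against 10.98, 10.73 and 11.68 in basal KO and 11.50, 12.50 and 11.82 in basal WT hearts. It fell by 1.69 in KO (SE 0.43, adjusted p = 0.00748) and by 2.24 in WT hearts (SE 0.43, adjusted p = 0.00116; limma). Sirt3, a mitochondrial deacetylase, fell by 1.21 and 0.85 in KO and WT hearts, and Esrra, a nuclear receptor of energy metabolism, by 0.64 and 0.46. Ppara, the receptor that drives fatty acid oxidation genes, fell by 1.40 in KO hearts (adjusted p = 0.0171), with -0.94 in WT hearts (adjusted p = 0.077). Hcar2, a receptor for 3-hydroxybutyrate, passed as lower in both, but all TAC arrays, 4.78 to 5.28, lay under the filter value of 5.75. Its basal arrays, 5.44 to 6.34, lay on both sides of that value, and it passed the filter through them alone. No gene of these lists passed between KO and WT hearts in either condition with all arrays. When TAC WT 3 was left out, Emb was higher in TAC KO than in TAC WT hearts (+1.37, adjusted p = 0.0279), and so were 3 of 6 macrophage markers, Cd68 (+0.85), Adgre1 (+1.08) and Lyz2 (+0.99; limma). Their part in the Emb value was not tested.

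**Figure D4:**
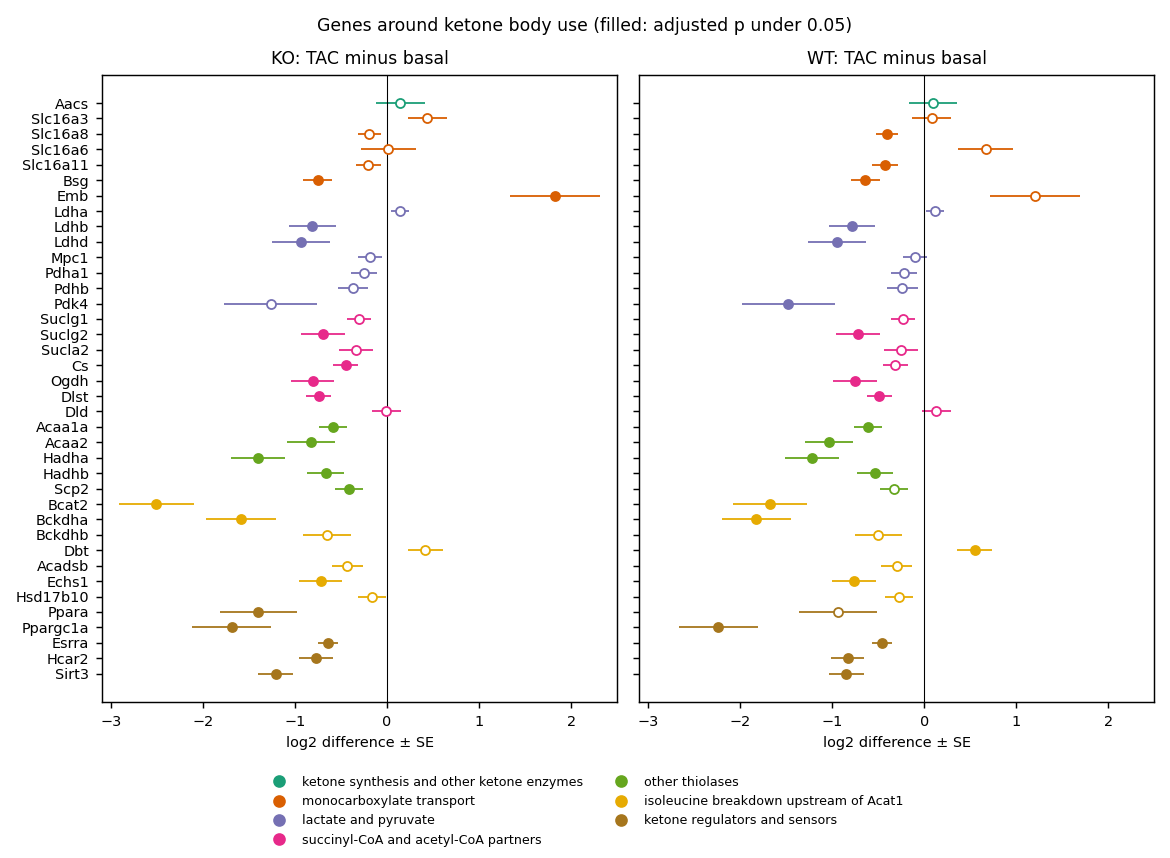
Log2 difference ± SE (horizontal axes) of TAC minus basal in KO and WT hearts for the measured genes around ketone body use, coloured by list; filled points have an adjusted p under 0.05. Bcat2 in KO hearts (-2.51) and Ppargc1a in WT hearts (-2.24) lie farthest to the left, and Emb in KO hearts (+1.82) farthest to the right.

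The genes most like each of the 4 were taken by Pearson r over the 14 arrays among 12256 genes, as a description, since all arrays share the contrast of TAC with basal hearts. For Oxct1 they were Acad11 (0.967), an acyl-CoA dehydrogenase, Asb14 (0.966) and Coq10a (0.965), with r of 0.940, 0.946 and 0.939 after group means were removed. For Acat1 they were Atp5h (0.986), a subunit of ATP synthase, the cardiomyocyte marker Tnni3 (0.982), cardiac troponin I, and Acadm (0.981), the medium-chain acyl-CoA dehydrogenase, with 0.985, 0.971 and 0.979 within groups. For Bdh1 they were Ankrd17 (0.897), Golga4 (0.877) and Ppip5k2 (0.870). For Slc16a1 they were Eea1 (0.945), an early endosome protein, Hspb7 (0.942), another small heat shock protein of heart muscle, and Amot (0.940), with lower r of 0.765, 0.808 and 0.763 within groups. The 4 genes themselves were left out of this search, so it does not show how near they lie to each other.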

How the data were processed

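Total RNA from left ventricles was hybridised to 14 Mouse430_2 arrays, grouped by sample titles. The authors deposited 1 log2 value per probe set and array, made with RMA per the submitters' processing notes; neither its version nor a joint normalization of both runs is stated in the sources used here. Raw intensities were not used here. Platform symbols were updated through gene numbers to RefSeq (GRCm38.p6): 34958 probe sets had 1 symbol, 932 several and 9211 none. The 64 control probe sets were left out, and 24525 probe sets above 5.75 in at least 3 arrays were kept. The 4 group means were fitted to all 14 arrays with limma 3.58.1 in R 4.3.3 (lmFit and eBayes; 10 residual and 3.73 prior degrees of freedom), with Benjamini-Hochberg adjustment over all kept probe sets and a threshold of 0.05. Adjusted p-values are limma's except where an exact permutation test is named, and SE comes from the model. The script was tested on simulated data. Correlations were tested by exact permutation. The number of arrays limits the precision, and levels are not compared between probe sets. Promoter windows came from RefSeq, and Acat1 had no entry used here.

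The brightest probe set of a gene is the kept one with the highest mean over all arrays. Named genes were every probe set of the 4 genes, Hspb8, up to 4 called genes per list and comparison by smallest p, with Slc16a3, Slc16a7 and Bsg where measured (other genes fixed by name are not reported here), and the 3 genes most like each member; Aacs, the 1 measured ketone enzyme, the marker genes named singly and values of list genes that missed the threshold in 1 genotype were added after seeing them. The 4 genes and the lists were chosen with earlier results of these data known. Of 4 erythroid, 4 hepatocyte, 4 skeletal muscle and 4 adipocyte markers, 1, 2, 1 and 1 passed the filter. Alternatives were other filters, probe set rules, scalings, variance models, array weights, the arrays of a comparison alone, a replicate block and leaving out each array; list counts without TAC WT 3 were added after seeing the data.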

Additional observations from a re-analysis of the deposited data

Results flagged for a closer look

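TAC KO 4 lay apart from its group on Slc16a1 1415802_at, at 13.06 against 12.68 to 12.72 in the other 3 TAC KO arrays, and its gap was 0.895 of the group's range, above Dixon's critical value for 4 arrays. It was the only one of 22 groups of 4 arrays to stand out, and chance marks about 1 in 20. On Bdh1 1426959_at every basal KO array lay above the basal WT mean and every TAC KO array below the TAC WT mean; the difference of the KO effects was -1.21 (limma, adjusted p = 0.641). On Oxct1 1455804_x_at every TAC KO array lay below the basal KO mean and every TAC WT array above the basal WT mean; the difference of the TAC effects, KO minus WT, was -0.69 (limma, adjusted p = 0.565).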

How the results depend on the processing

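With all arrays kept, 470 of 503 values under an alternative kept their direction and their side of the threshold, and with 1 array left out 769 of 840 did. The rise of Slc16a1 in WT hearts passed on both probe sets under every setting in which it could be tested; the stricter filter removed 1446274_at. Averaging a gene's probe sets gave +1.06 for Bdh1 in WT hearts (passing), +0.037 for Oxct1 in WT and -0.47 in KO hearts (not passing), -0.66 for Acat1 in KO hearts (passing), +0.056 for Slc16a1 in TAC KO against TAC WT and -0.021 for Acat1 in basal KO against basal WT hearts. Bdh1 1452257_at passed in WT hearts with median centring (+0.91) and array weights (+1.16), and Acat1 1424183_at passed in KO hearts with quantile normalization (-0.64), array weights (-0.50) and a fit on those arrays alone (-0.56). Calls in WT hearts were lost for Oxct1 1436750_a_at with quantile normalization (+0.48) and for Bdh1 1426959_at in a fit on those arrays alone (+1.29). With array weights 4 of the 11 probe sets passed between TAC KO and TAC WT hearts, beside 2956 of 24525 in the whole table. Near 0 the sign turned for Acat1 in basal KO against WT hearts (-0.0009 for 1424183_at with array weights, +0.01 for 1451271_a_at with median centring), for Bdh1 1426959_at in TAC against basal KO hearts (-0.0034 with quantile normalization), and for the difference of KO effects on Slc16a1 1446274_at (-0.0064 with quantile normalization, -0.041 with median centring, -0.045 with array weights). The cause of these moves was not tested.

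Deviations from the group means correlated between KO and WT arrays of the same number at -0.04, 0.07 and -0.01 in basal hearts. In TAC hearts the values were 0.58, -0.02, -0.08 and 0.50. Arrays of unlike number were not compared, so whether replicate numbers pair the samples was left undecided. With the replicate number as a block, 4 of 11 probe sets passed in KO and 6 in WT hearts for TAC against basal, Bdh1 1452257_at passed in WT hearts (+0.99) and Acat1 1451271_a_at did not in KO hearts (-0.56, adjusted p = 0.0554).

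Leaving out 1 array at a time, 2 to 7 probe sets passed for TAC against basal in KO and 2 to 6 in WT hearts, the fewest without basal KO 3 and without basal WT 3. Calls in the whole table of 24525 moved too. In KO hearts they were 8249 without basal KO 3 and 11835 without TAC WT 3, against 10593 with all arrays. In WT hearts they were 9963 without basal WT 3, against 12300. Over the fits that left out 1 array, Bdh1 1452257_at ran from 0.49 to 1.13 in WT hearts. In KO hearts Oxct1 1449059_a_at ran from -0.66 to -0.41, Acat1 1424183_at from -0.70 to -0.42 and Slc16a1 1415802_at from 0.43 to 0.58. The sign turned in at least 1 fit for TAC against basal KO hearts on Bdh1 1452257_at (-0.05 to 0.53) and 1426959_at (-0.07 to 0.39) and Oxct1 1436750_a_at (-0.47 to 0.043). It turned for TAC KO against TAC WT hearts on Acat1 1424183_at (-0.32 to 0.024) and 1424182_at (-0.55 to 0.038) and Slc16a1 1415802_at (-0.17 to 0.052) and 1446274_at (-0.0067 to 0.28), and for the difference of KO effects on the first 2 (-0.34 to 0.0075 and -0.47 to 0.12) and the last (-0.15 to 0.14). For basal KO against basal WT hearts it turned on Bdh1 1452257_at (-0.11 to 0.57), on all 4 Oxct1 probe sets (1449059_a_at -0.037 to 0.095, 1428140_at -0.0017 to 0.078, 1436750_a_at -0.32 to 0.25, 1455804_x_at -0.09 to 0.27) and on all 3 of Acat1 (1424183_at -0.073 to 0.082, 1451271_a_at -0.055 to 0.09, 1424182_at -0.14 to 0.015). None of the values whose sign turned had passed.

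Over the whole table, 7 probe sets passed between TAC KO and TAC WT hearts, 168 without TAC WT 3, 34 without TAC WT 4 and 2 without TAC WT 2. The stricter filter tested 12948 probe sets and left 6816 calls in KO and 7175 in WT hearts for TAC against basal, against 10593 and 12300, and 1 probe set per gene left 5451 and 6214. Counts of probe sets were not computed with 1 value per gene.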
